A study of Mus musculus with 6 samples.

Results

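Dorsal and ventral zone markers of the olfactory epithelium were examined together with the trace amine-associated receptor (Taar) genes. The rule took 9 genes by name from a table of 31319 genes: Acsm4 and Nqo1, known markers of the dorsal zone, Ncam2, a marker of the ventral zones, and the receptor genes Taar2, Taar3, Taar4, Taar5, Taar6 and Taar9. All 9 were found. The table held raw read counts of polyadenylated RNA from the main olfactory epithelium, the odour-sensing lining of the nose, of male C57BL/6 mice aged 5 months. A knockdown of miR-200b and miR-200a (KD) was set against controls labelled NC, with 3 libraries in each group, numbered KD-1 to KD-3 and NC-1 to NC-3; triplets of values below follow that numbering. Strain, sex, age and tissue were the same in both groups, while the sources used here give neither how the knockdown was made nor what NC mice received. Since no label ties each library to a mouse of its own, p-values here measure spread among libraries that may be technical replicates.

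Neurons of the olfactory epithelium each choose a receptor gene, and the choice is limited by where the neuron lies along the dorsal to ventral axis. Dorsal neurons make the acyl-CoA synthetase ACSM4 and the quinone reductase NQO1, express the class I receptors and part of the class II receptors, and send axons to the dorsal olfactory bulb. Ventral neurons carry the adhesion molecule NCAM2, also called OCAM. Taars are a small receptor family for volatile amines, used in place of odorant receptors, and most of them belong to dorsal neurons, while Taar6 and the Taar7 genes have been described in ventral epithelium. Omp, the olfactory marker protein gene, is transcribed in mature neurons of all zones, so counts per Omp count compare a gene with mature neuron RNA as a whole.

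The 2 microRNAs named in the knockdown are shown first, since the groups are defined by them. The RefSeq table (GRCm38.p6) places both on the minus strand of chromosome 4, miR-200a-3p at chr4:156054911-156054932 and miR-200b-3p at chr4:156055685-156055706, and the capitals mark the seed, bases 2 to 8, which pairs with target transcripts. The seeds of the pair are not the same.
mmu-miR-200a-3p: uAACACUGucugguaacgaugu
mmu-miR-200b-3p: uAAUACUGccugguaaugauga
Among the longest annotated 3′ untranslated regions (GENCODE), that of Acsm4 (221 bases) and that of Nqo1 (594 bases) held no match to either seed. That of Ncam2 (3375 bases) held 1 match to the miR-200a seed, at its bases 3303 to 3309, and none to the miR-200b seed. The match is shown in capitals with 11 bases on each side.
Ncam2 site: cactaaacctgCAGTGTTtacactcaatg
A match to the miR-200a seed was present in 20.6% and one to the miR-200b seed in 15.6% of 15821 tested genes with such a region. The annotated models of the 6 Taar genes end with the coding sequence, so no region was searched for them.

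The sequences upstream of the dorsal markers follow, because these dorsal genes carry the main comparison. They are the 250 bases before the RefSeq gene start, of Acsm4 at chr7:119689776-119690025 on the plus strand and of Nqo1 at chr8:107403206-107403455 on the minus strand (GRCm38.p6). Capitals mark motif matches.
Acsm4 upstream: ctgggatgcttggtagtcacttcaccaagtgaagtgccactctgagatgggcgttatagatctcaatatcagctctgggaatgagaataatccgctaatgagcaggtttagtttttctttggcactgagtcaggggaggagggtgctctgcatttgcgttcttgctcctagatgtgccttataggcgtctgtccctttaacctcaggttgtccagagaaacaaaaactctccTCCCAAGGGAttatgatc
Nqo1 upstream: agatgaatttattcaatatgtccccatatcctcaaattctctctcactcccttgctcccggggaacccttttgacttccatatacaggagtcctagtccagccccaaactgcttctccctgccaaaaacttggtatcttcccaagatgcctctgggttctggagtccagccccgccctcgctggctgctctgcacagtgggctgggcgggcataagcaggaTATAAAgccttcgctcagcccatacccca
The capitals in the Acsm4 sequence are a match to the paired Olf/EBF half-sites, bound by transcription factors of olfactory neurons, starting 18 bases before the gene start. Windows of 250 bases before to 50 bases after a gene start held this motif in 297 of 32851 promoters (0.904%), and among 8 member genes with an entry only that of Acsm4 held it. The capitals in the Nqo1 sequence are TATAAA, starting 29 bases before the gene start, a motif found in 13.6% of promoters. Each motif was searched on both strands. TAATTA, a homeobox core, and TGACNNNGC, the antioxidant response element through which NRF2 acts on Nqo1 in other tissues, were in none of the 8 windows, against 5.29% and 12.4% of all promoters. Bases further upstream than 250 were not searched, so the absence says nothing on elements there. No entry was used for Taar4. A match is a description of these letters and not evidence of binding.

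Total counts ran from 15704791 to 17618540 per library. KD counts of Omp were 24302, 149 and 33430, and NC counts 69388, 66437 and 61926. KD-2 stood apart by its few Omp counts, so fits per Omp count are given with and without it. NC-1 stood apart by the sum of 7 gland genes, at 85800 normalised counts per 1000000 (CPM) against at most 23300 elsewhere. Not all 7 were high there, since Muc5b (15410 counts) and Aqp5 (2749 counts) were lowest in NC-1. A list of 20 mature neuron genes summed to between 519 and 6230 CPM in KD and between 10300 and 16400 in NC. In whole tissue such as this, fewer cells of a type and less RNA per cell cannot be told apart.

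Levels per length differed widely between the genes. In NC, Acsm4 (chromosome 7, 119690026 to 119714565, build GRCm38) stood at 65.8 CPM per kilobase of exon, and its lowest NC library (55.8) lay above the highest of Nqo1 (45.1). Nqo1 (chromosome 8, 107388225 to 107403206) stood at 36.8 CPM per kilobase, and Ncam2 (chromosome 16, 81200697 to 81626828) at 2.79, again with no overlap between NC libraries. Below them came Taar6 (2.29), Taar2 (1.32), Taar4 (0.887), Taar9 (0.504), Taar3 (0.455) and Taar5 (0.247 CPM per kilobase), for which the models hold coding length only. From Ncam2 down, the NC ranges of each gene and the next one overlapped. The 13 Taar genes of the table lie together on chromosome 10, from 23920356 to 24109534, among them Taar2 at 23938572 to 23941583, Taar6 at 23984609 to 23985646 and Taar9 at 24108488 to 24109534. Each of the 6 Taar members except Taar2, which has 2 exons, is a single exon.

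**Figure D1:**
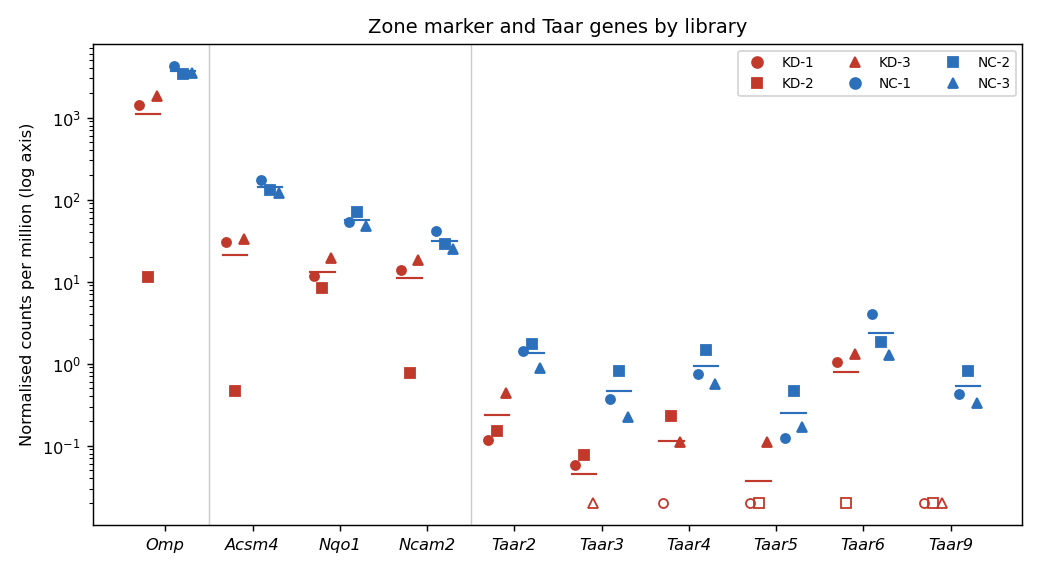
Normalised counts per 1000000 (log axis) of Omp and the 9 genes in each library, KD in red and NC in blue, with a line at the mean of each group (3 libraries); open symbols at the bottom stand for 0 counts. Of the 6 tested members, all but Taar6 have their 3 KD values below their 3 NC values, and KD-2 is far below the other libraries for Omp, Acsm4 and Ncam2 but not for Nqo1.

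Relative to all RNA, every one of the 9 genes had a lower mean in KD, and none passed the test. Of the 9, 6 passed the filter on low counts and were tested with edgeR's quasi-likelihood test, and Taar3, Taar5 and Taar9 did not. Taar2 and Taar4 passed that filter through their NC counts. The 3 KD values lay below the 3 NC values for Acsm4, Nqo1 and Ncam2, against 18.6% of 18444 tested genes. For Taar2 and Taar4 they did so too, but these are not set against that share, being tested through NC. Taar6 overlapped between groups. For the untested 3, single libraries with 0 to 2 counts cannot be ordered, since a count of 0 allows up to 3. After Benjamini-Hochberg adjustment over all tested genes, 0 genes (0%) passed 0.05 in that test. Unadjusted p-values under 0.05 were found for 1706 lower genes (9.25%) and 1603 higher ones (8.69%). DESeq2 called 347 genes, among them Nqo1.

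Acsm4 is a mitochondrial enzyme that joins medium-chain fatty acids to coenzyme A. Its KD counts were 526, 6 and 599 and its NC counts 2824, 2566 and 2144. The groups were far apart, and KD-2 was nearly empty. CPM were 21.4 ± 18.1 (KD) and 142 ± 28.5 (NC; SD, n = 3 each), log2 fold change -2.72 (SE 1.17, edgeR adjusted p = 0.28). Without KD-2 the log2 fold change was -2.13 with a smaller error (SE 0.231, 95% interval -2.70 to -1.56, edgeR adjusted p = 0.31).

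Nqo1 reduces quinones and is also a standard target of the oxidative stress factor NRF2, so it is not limited to neurons. KD libraries held 199, 110 and 350 Nqo1 counts, NC libraries 876, 1374 and 847. This came to 11.6, 8.41 and 19.3 CPM (KD) and 53.9, 70.1 and 47.4 CPM (NC). The groups did not overlap, and KD-2 was close to the other KD libraries although its Omp level was 11.4 CPM against 1420 and 1840 there. The log2 fold change was -2.12 (SE 0.34, 95% interval -2.95 to -1.30, edgeR adjusted p = 0.28), and DESeq2 gave an adjusted p of 5.9e-05.

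Ncam2 is a homophilic adhesion molecule of axons. Counts of Ncam2 were 238, 10 and 333 (KD) and 675, 560 and 443 (NC). The KD libraries were below the NC libraries, with KD-3 nearest to NC-3. CPM were 11 ± 9.13 (KD) and 31.6 ± 8.80 (NC; SD, n = 3 each), log2 fold change -1.52 (SE 0.912, edgeR adjusted p = 0.36). Without KD-2 it was -0.95 (SE 0.289, edgeR adjusted p = 0.32), beside -1.17 for Omp in the same fit. Without both KD-2 and NC-1 the log2 fold changes were -1.95 for Acsm4, -1.90 for Nqo1 and -0.70 for Ncam2 (edgeR adjusted p = 0.096, 0.19 and 0.30).

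The Taar genes had few counts, so single values carry a wide counting error. Taar2 counts were 2, 2 and 8 (KD) and 23, 34 and 16 (NC), log2 fold change -2.44 (SE 0.592, edgeR adjusted p = 0.28). Taar4, a receptor for phenylethylamine, was counted 0, 3 and 2 times in KD but 12, 29 and 10 times in NC, log2 fold change -3.05 (SE 0.874, edgeR adjusted p = 0.28). In both genes the KD libraries were all below the NC libraries, and NC-2 was the highest. For Taar4 the log2 fold change was -3.87 without KD-2 and -2.46 without KD-1 (edgeR adjusted p = 0.31 and 0.43). Taar3 had 1, 1 and 0 counts against 6, 16 and 4, a ratio of NC to KD of 11.7 with a 95% exact interval of 2.93 to 102, for counting error alone. Taar5, a receptor for trimethylamine, had 0, 0 and 2 counts against 2, 9 and 3, a ratio of 6.31 (1.45 to 57.2). Taar9 had no count in any KD library and 7, 16 and 6 in the NC libraries. A count of 0 allows up to 3 counts over the KD group, so Taar9 was at least 8.71-fold lower, with the NC counts taken as they stand. Taar6 overlapped between groups. Its counts were 18, 0 and 24 (KD) and 65, 36 and 23 (NC), the CPM of KD-3 (1.32) lay above that of NC-3 (1.29), and its log2 fold change was -1.54 (SE 1.02, edgeR adjusted p = 0.39). For Taar6 it was -0.97 without KD-2, -0.94 without NC-1 and -0.37 without both (edgeR adjusted p = 0.49, 0.71 and 0.80). Of all 50-base stretches of the members' transcripts, 1 of 989 in Taar6 occurred in another gene, Taar8a, and none in the other 5 Taar members.

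The authors' deposited table gives unadjusted p-values of 1.16e-07 for Nqo1, 0.000313 for Taar9, 0.000764 for Taar2, 0.0021 for Taar4 and 0.0101 for Acsm4. In the authors' deposited table those of Taar3, Ncam2, Taar5 and Taar6 are 0.0114, 0.0887, 0.104 and 0.134. They come from the same 6 libraries.

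Counts per Omp count relate each gene to mature neuron RNA. On this scale most genes were higher in KD, Omp itself being at -1.17 relative to library size without KD-2. Without that library the median log2 fold change of all tested genes was 1.18, and 66.3% were higher and 0.531% lower at an adjusted p under 0.05 in edgeR's test. Of the 6 tested members, Acsm4 and Taar4 passed as lower in KD, and Nqo1, Taar2, Ncam2 and Taar6 did not pass. Unadjusted p-values in edgeR's test were 0.0083 for Acsm4 and 0.029 for Taar4. The Benjamini-Hochberg adjustment is shared by both directions, so the many genes called higher eased these calls. With Ncam2 in place of Omp, Acsm4 had an unadjusted edgeR p of 0.009 but an adjusted p of 0.11. Taar2 and Taar4 were in the test only through their NC counts, so the call of Taar4 is conditional on that. With KD-2 in the fit 23 genes were lower (0.125%) and 0 higher (0%), and no member passed. The median log2 fold change of all tested genes was then 6.77. Over KD-1 and KD-3, Acsm4 and Nqo1 lay below all NC libraries, against 1.29% of tested genes. Taar2 and Taar4 also lay below, but are not set against that share, since only their NC counts brought them into the test. For both, the counting interval of KD-3 overlapped that of NC-3. Ncam2 lay above all NC libraries, as did 83.4% of tested genes, though its counting intervals in KD-1 and KD-3 overlapped that of NC-1. Taar6 overlapped with NC. Over all 3 KD libraries none of the 6 lay below NC, against 0.96% of tested genes, and Ncam2 lay above, against 82.6%. Taar3, Taar5 and Taar9 had too few counts for such an order. Shares over all tested genes include genes of every cell type, and 5.02% were below 0 in the fit without KD-2. Of 715 tested olfactory receptors outside class I, 324 were below 0 there, with 52 called lower and 36 higher. Of 43 tested class I receptors 39 were below 0, with 33 called lower and 2 higher. How many receptors were tested only through NC counts was not determined.

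**Figure D2:**
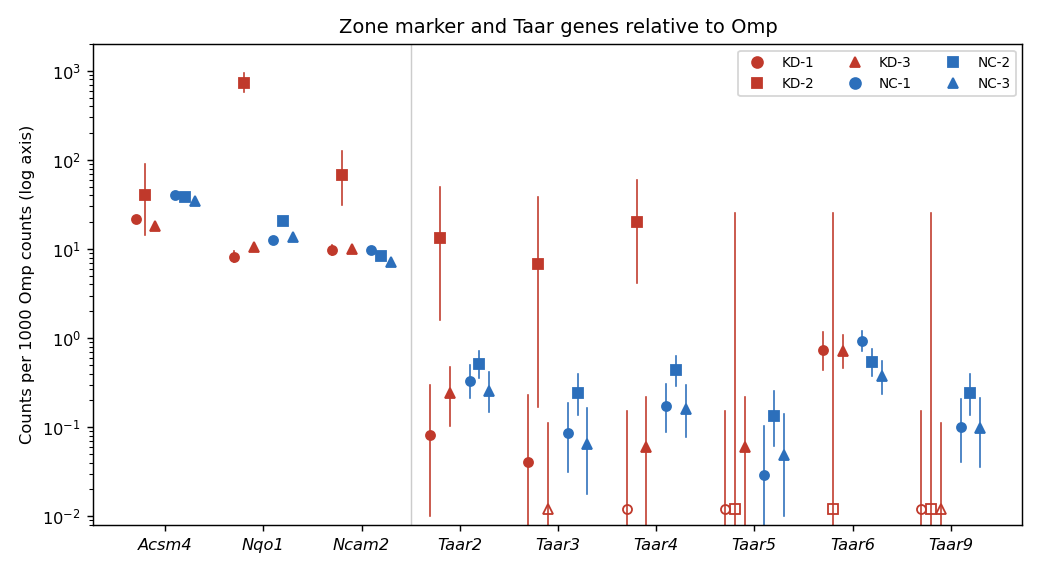
Counts per 1000 Omp counts (log axis) of the 9 genes in each library with 95% exact intervals for counting error, KD in red and NC in blue; open symbols at the bottom stand for 0 counts. KD-1 and KD-3 lie below the NC libraries for Acsm4 and Nqo1 and at their level or above for Ncam2 and Taar6, while KD-2, with 149 Omp counts, has wide intervals and stands far above for Nqo1.

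Acsm4 stood at 21.6 and 17.9 counts per 1000 Omp counts for KD-1 and KD-3, while NC-1 to NC-3 had 40.7, 38.6 and 34.6. The gap between the groups was wider than the range within either. In KD-2 the value was 40.3, from 6 counts, with a 95% exact interval of 14.5 to 89.7 that covers all other libraries. Fitted per Omp count without KD-2, Acsm4 had a log2 fold change of -0.94 (SE 0.266, 95% interval -1.56 to -0.32, edgeR adjusted p = 0.019). With KD-2 it was -0.54 (SE 2.39, edgeR adjusted p = 0.84). The call was lost when KD-1 (log2 fold change -1.08, edgeR adjusted p = 0.10), KD-3 (-0.81, adjusted p = 0.062) or NC-2 (-0.93, adjusted p = 0.071) was also left out. Without KD-1 or KD-3 the KD group is 1 library, assumed to vary like NC, and without KD-1 no gene passed at all. The call was also lost with Gnal, the olfactory G protein (-0.84, edgeR adjusted p = 0.17), or Ncam2 (-1.18, adjusted p = 0.11) in place of Omp.

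For Nqo1 there were 8.19 and 10.5 counts per 1000 Omp counts for KD-1 and KD-3, while NC-1 to NC-3 had 12.6, 20.7 and 13.7. NC-2 was the highest, and the KD values lay below all NC values. In KD-2 there were 738 (95% exact interval 572 to 951), far above every other library. Without KD-2 the log2 fold change per Omp count was -0.75 (SE 0.32, edgeR adjusted p = 0.069), and with KD-2 it was 4.0 (SE 2.87, edgeR adjusted p = 0.18). Other fits called Nqo1 in opposite directions. DESeq2 over all 6 libraries called it higher (4.0, adjusted p = 0.023). That fit called 13436 of 18443 genes higher, with a median log2 fold change of 6.77, above that of Nqo1. Without KD-2 and NC-1, edgeR called Nqo1 lower (-0.88, adjusted p = 0.025), as it did 128 of 18443 genes.

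For Ncam2 there were 9.79 and 9.96 counts per 1000 Omp counts for KD-1 and KD-3, while NC-1 to NC-3 had 9.73, 8.43 and 7.15. Both KD values were above the NC values, but not beyond counting error. The 95% exact intervals of KD-1 (8.58 to 11.1) and KD-3 (8.92 to 11.1) overlapped that of NC-1 (9.0 to 10.5). In KD-2 the value was 67.1 (95% exact interval 31.5 to 127), from 10 counts. Without KD-2 the log2 fold change per Omp count was 0.23 (95% interval -0.40 to 0.86, edgeR adjusted p = 0.46), and with KD-2 it was 1.71 (SE 2.27, edgeR adjusted p = 0.47).

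Among the Taars, Taar2 had 0.0823 and 0.239 counts per 1000 Omp counts for KD-1 and KD-3, while NC-1 to NC-3 had 0.331, 0.512 and 0.258, and KD-3 lay close to NC-3. Its log2 fold change per Omp count without KD-2 was -1.12 (SE 0.655, edgeR adjusted p = 0.16). Taar4 had 0 and 0.0598, and NC libraries 0.173, 0.437 and 0.161, log2 fold change -2.84 (SE 1.06, edgeR adjusted p = 0.044). That call rested on 2 KD counts and was lost without NC-2 (-2.22, edgeR adjusted p = 0.11) and in DESeq2 (-2.96, adjusted p = 0.060). It was lost too when KD was 1 library, without KD-1 (-2.06, edgeR adjusted p = 0.20) or without KD-3 (adjusted p = 0.062), where KD-1 has no Taar4 count and a fold has no meaning. It was also lost with the mature neuron list (-2.83, edgeR adjusted p = 0.055), Gnal (-2.69, adjusted p = 0.086) or Ncam2 (-3.07, adjusted p = 0.11) in place of Omp. Taar6 had 0.741 and 0.718, inside the NC values of 0.937, 0.542 and 0.371, and its log2 fold change was 0.24 (95% interval -0.97 to 1.45, edgeR adjusted p = 0.69). The KD libraries had no Taar9 count, against 29 counts in NC. With the NC counts taken as they stand, Taar9 was at least 2.82-fold lower per Omp count without KD-2. Without NC-2 as well, Taar9 was at least 1.91-fold lower. Taar9 entered edgeR's test only when the filter on low counts was dropped, and then only through its NC counts. Its adjusted p per Omp count without KD-2 was then 0.019, in a fit that called 219 of 31318 genes lower and 12862 higher. Without the filter its edgeR adjusted p was 0.082 per Omp count with KD-2 and 0.35 relative to library size. In KD-2, Taar2, Taar3 and Taar4 had 2, 1 and 3 counts beside 149 Omp counts, or 13.4, 6.71 and 20.1 per 1000, while Taar5, Taar6 and Taar9 had none, which allows up to 20.1 per 1000. With KD-2 in the fit the log2 fold changes per Omp count of Taar2 and Taar4 were 2.22 and 3.85 (edgeR adjusted p = 0.13 and 0.058). With KD-2 kept, Taar4 was called higher when KD-1 (4.84, edgeR adjusted p = 0.029) or KD-3 (4.81, adjusted p = 0.023) was left out, so it was called in both directions. In those fits 16160 and 16352 of 18443 genes were called higher, with a median log2 fold change of 7.35, above that of Taar4.

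**Figure D3:**
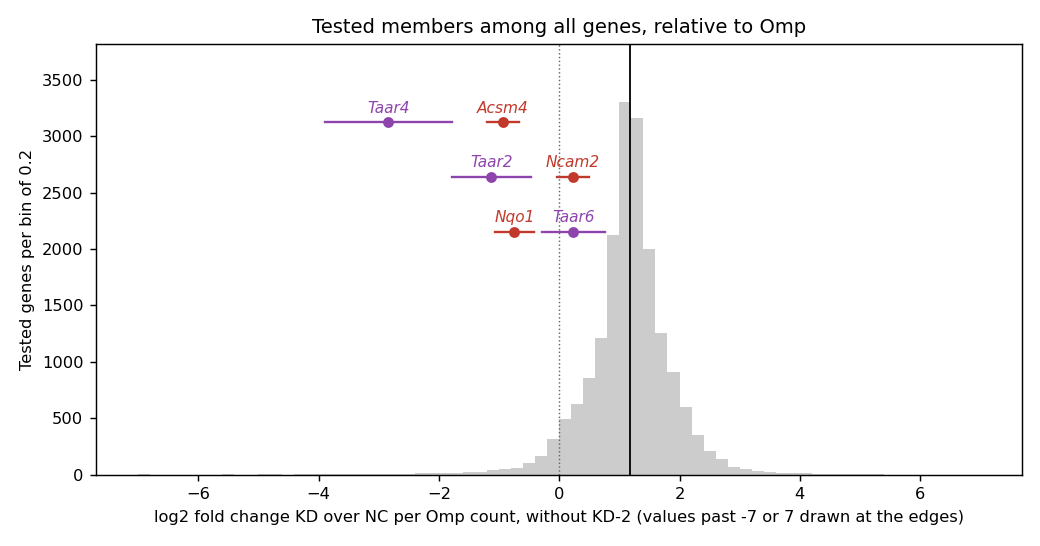
Distribution of the log2 fold change of KD over NC per Omp count, without KD-2, over 18443 tested genes (grey, number of genes per bin; black line, the median of 1.18; dotted line, 0), with the 6 tested members as points at arbitrary heights and bars of 1 standard error. Taar4 (-2.84), Taar2 (-1.12), Acsm4 (-0.94) and Nqo1 (-0.75) lie in the sparse left part, and Ncam2 (0.23) and Taar6 (0.24) lie just above 0.

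The dorsal to ventral ratio does not use Omp. Acsm4 counts per Ncam2 count were 2.21, 0.6 and 1.80 (KD) and 4.18, 4.58 and 4.84 (NC). Here all 3 KD libraries, KD-2 included, were below the NC libraries. The upper ends of their 95% exact intervals (2.59, 1.82 and 2.06) were below the lowest NC bound (3.85). These intervals cover counting error and not spread between libraries, and KD-2 rests on 6 Acsm4 and 10 Ncam2 counts. For orders per Ncam2 count, here and below, the share over all genes was not determined. For Nqo1 the ratios to Ncam2 were 0.836, 11 and 1.05 (KD) and 1.3, 2.45 and 1.91 (NC), so KD-1 and KD-3 were below NC and KD-2 above. Relative to Ncam2 and without KD-2, the fitted log2 fold changes were -1.18 for Acsm4 (95% interval -1.97 to -0.38) and -1.0 for Nqo1 (-1.91 to -0.09), both with edgeR adjusted p = 0.11. In that fit 0% of genes were lower and 0.0163% higher at an adjusted p under 0.05, and neither difference from Ncam2 passed. The class I receptors, whose neurons are dorsal, summed to 0.849, 5.20 and 1.36 counts per Ncam2 count (KD) and 3.54, 6.96 and 3.13 (NC), so KD-1 and KD-3 were below the NC libraries and KD-2 inside their range. Per 1000 Omp counts they had 8.31 and 13.6 counts for KD-1 and KD-3, while NC-1 to NC-3 had 34.4, 58.7 and 22.4. All other olfactory receptors together had 1190 and 1170 against 1320, 1180 and 798. KD-2 was far above NC on this scale, at 349 for class I and 9160 for the other receptors.

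**Figure D4:**
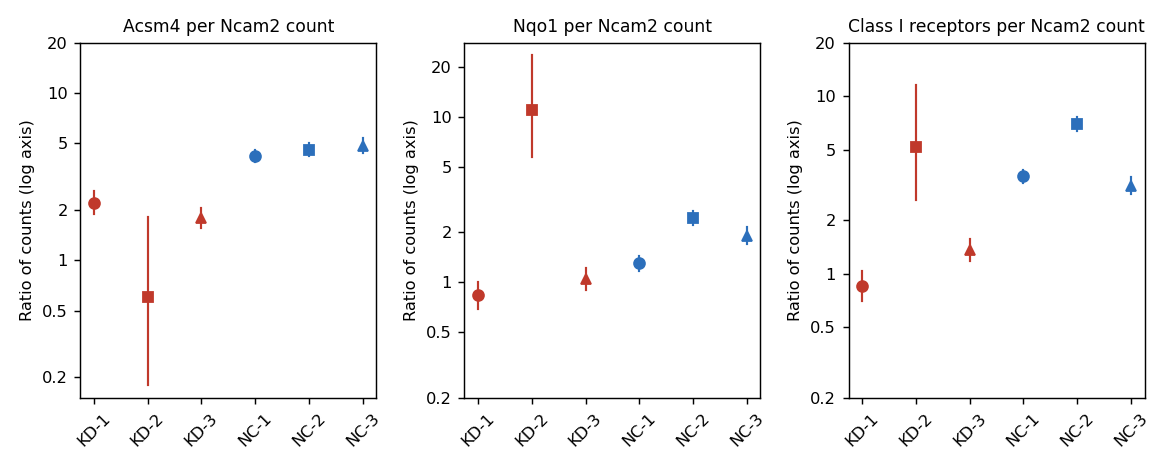
Counts of Acsm4, of Nqo1 and of the summed class I receptors per Ncam2 count in each library (log axes) with 95% exact intervals for counting error, KD in red and NC in blue. The KD values of Acsm4, 0.6 to 2.21, lie below the NC values of 4.18 to 4.84, while KD-2 stands above NC for Nqo1 and within the NC range for class I receptors.

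The table held 7 Taar genes besides the members: Taar1, Taar7a, Taar7b, Taar7d, Taar7e, Taar7f and Taar8b. The Taar7 copies are near-identical, so reads can be shared between them and their single values are uncertain. None of the 3 that were tested passed: Taar7b, counted 7, 0 and 5 times in KD and 19, 14 and 18 times in NC, had a log2 fold change of -1.98 (SE 0.786, edgeR adjusted p = 0.28). Grouped by where the genes have been described, a grouping made after their values were seen, the dorsal genes (Taar2, Taar3, Taar4, Taar5, Taar8b and Taar9) summed to 3, 6 and 12 counts (KD) and 51, 116 and 40 (NC). The ventral genes (Taar6 and the 5 Taar7 genes) summed to 43, 0 and 74 (KD) and 153, 158 and 75 (NC). As a description with no test, the ratio of NC to KD per Omp count without KD-2 was 4.03 for the dorsal and 0.963 for the ventral genes. NC-2 held 116 of the 207 dorsal NC counts, and without it the ratios were 2.67 and 0.857. KD-2 goes against this order, since all of its 6 Taar counts were from dorsal genes. Taar1, which is not an olfactory receptor, had 1 count in all 6 libraries together.

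**Figure D5:**
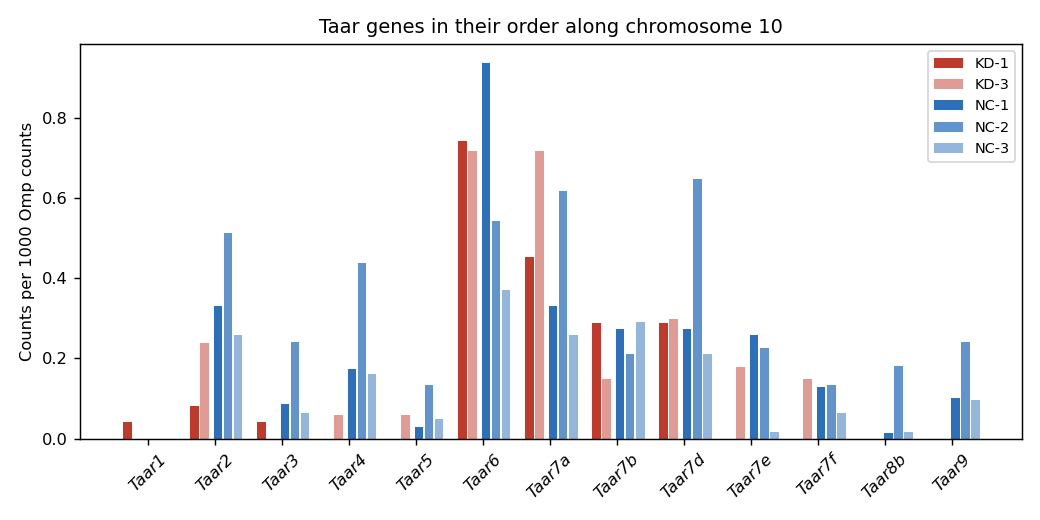
Counts per 1000 Omp counts of 13 Taar genes, in their order along chromosome 10, in the libraries other than KD-2 (KD in red, NC in blue, bars from 0). KD bars are below all NC bars for Taar2 and Taar4, rest on 2 counts or fewer for Taar3, Taar5, Taar8b and Taar9, and reach the height of NC bars for Taar6 and Taar7a.

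Of 10 other genes of the dorsal to ventral axis, 8 had a log2 fold change below 0, against 49.4% of all tested genes (median -0.18 against 0.01), 1 was lower and 1 higher at an unadjusted p under 0.05, and none passed the adjusted threshold. Robo2, a Slit receptor that is higher in dorsal neurons, averaged 26.2 ± 13.3 CPM (KD) and 58.5 ± 14.9 CPM (NC; SD, n = 3 each, edgeR adjusted p = 0.28). Sema3f, a repellent that guides ventral axons, stood at 169 ± 43.7 against 99.6 ± 32.1 (edgeR adjusted p = 0.28). Per Omp count without KD-2, Robo2 was at 0.41 (edgeR adjusted p = 0.21) and Sema3f at 1.71 (edgeR adjusted p = 0.015), on either side of the median of 1.18. On that scale 1 of the 10 was below 0 and 8 were called higher, where 66.3% of all tested genes were.

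Relatives and pathway partners of the markers went in both directions. Of 18 genes of the NRF2 response, to which Nqo1 belongs, 6 were below 0 (median of the log2 fold changes 0.12), with 1 lower and 3 higher at an unadjusted p under 0.05 and none past the adjusted threshold. The cystine transporter Slc7a11 averaged 130 ± 15.1 CPM (KD) and 39.8 ± 18.0 CPM (NC), and Gclc, which makes the glutathione precursor, at 193 ± 19.9 against 133 ± 2.37 (SD, n = 3 each). The haem oxygenase Hmox1 stood at 90.4 ± 39.4 against 42.7 ± 19.0, and the glutathione transferase Gstm1 was on the other side at 463 ± 231 against 1060 ± 181. All 4 had edgeR adjusted p = 0.28. Of 4 relatives of Acsm4, 2 were tested, with 1 on either side of 0. Acsm3 was counted 126, 16 and 148 times in KD and 421, 311 and 200 times in NC, log2 fold change -1.66 (SE 0.692, edgeR adjusted p = 0.28). Acsm1 was counted 176, 177 and 256 times in KD and 54, 132 and 103 times in NC, log2 fold change 1.26 (SE 0.322, edgeR adjusted p = 0.28), opposite in sign to that of Acsm4. Ncam1, the relative of Ncam2 found on neurons of all zones, stood at 96.9 ± 60.2 against 287 ± 86 CPM, a log2 fold change of -1.56 (SE 0.596, edgeR adjusted p = 0.28), and of 0.10 (edgeR adjusted p = 0.78) per Omp count without KD-2, near the values of Ncam2 (-1.52 and 0.23).

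Mature neuron genes as a list stayed near 0 per Omp count. Without KD-2 the median log2 fold change of 19 such genes was -0.01, with 10 below 0, against 5.02% of all tested genes, and none called in either direction in edgeR's test. Cfap69, which tunes the odour response, was at -0.08, Gnb1, a G protein subunit, at 0.40, and Adcy3, the adenylyl cyclase of the cilia, at -0.39 (edgeR adjusted p = 0.84, 0.31 and 0.43). Acsm4, Nqo1, Taar2 and Taar4 lay below the list's median and Ncam2 and Taar6 above it. Whether a member differs from the list was not tested.

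Genes whose profile over the 6 libraries was nearest differed between the markers. Profiles were log2(CPM + 0.5) centred on each gene's mean, and the distance was the root mean square difference over 17031 genes of at least 1 CPM. Nearest to Acsm4 were Olfr533 (0.224), Stmn4 (0.231), Nphs1 (0.261), Ctxn3 (0.322) and Faim2 (0.379), against a median distance of 2.58 over all genes. Nearest to Ncam2 were Kcnmb2 (0.0806), Kcnk10 (0.0944), Gm44964 (0.0971) and Kcna6 (0.0988, median 1.69), 3 of them potassium channel genes. Nearest to Nqo1 were the receptor genes Olfr430 (0.157), Olfr1489 (0.173), Olfr1362 (0.208) and Olfr1500 (0.221) and Otoa (0.199, median 1.18). These 5 genes had 0 to 0.99 CPM in the KD libraries, near the added 0.5 CPM, so their nearness to Nqo1, at 8.41 to 19.3 CPM there, depends on that offset. Nearest to the summed Taar members were Olfr839-ps1 (0.131), AC159633.1 (0.132), Olfr1362 (0.164), Olfr476 (0.17) and Gm13830 (0.182, median 1.14).

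Markers of other cells are given by library group, and no gene of these lists passed edgeR's adjusted threshold, against 0% of all genes. Summed CPM of 7 horizontal basal cell genes were 841 to 1420 in KD and 229 to 632 in NC, and for all 7 genes the lowest KD value exceeded the highest NC value, against 15.3% of tested genes. Summed CPM of 9 sustentacular genes were 3020 to 11000 against 11400 to 14600, of 8 ciliated respiratory genes 798 to 911 against 561 to 747, of 7 gland genes 3440 to 23300 against 3370 to 85800, and of 8 B and plasma cell genes 20000 to 53200 against 2600 to 27400. The gland and the B and plasma cell sums overlapped between groups. For 6 ensheathing glia genes they were 50.5 to 87.3 against 92.9 to 156, and for 8 bulb and brain genes 30.1 to 86.5 against 134 to 214. No gene of these lists was at 0 in all libraries. Sums hide genes that go the other way. The 3 KD values lay below NC for 5 of 9 sustentacular genes and above for 1, Krt8. For gland genes it was 0 below and 3 above of 7, for ciliated genes 0 and 3 of 8. For B and plasma cell genes it was 0 and 1 of 8, and for glia genes 2 and 0 of 6. Bulb and brain genes had 3 below and 1 above among 6 tested. Over all tested genes the shares were 18.6% below and 15.3% above. The part of these cells in the values of Acsm4, Nqo1, Ncam2 and the Taars was not tested.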

How the data were processed

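The members and gene lists were chosen with earlier results of these data known. Libraries were poly(A)-selected, per the labels' protocols, and read from both ends over 150 bases, per the series' design text. Tools in the submitters' processing notes are HTSeq 0.6.0, HISAT2 2.1.0, Bowtie2 2.2.3, TopHat2, DESeq and DESeq2, without their roles, and the build is GRCm38. For annotation release and strand setting, nothing is stated. The authors deposited 1 table with raw counts per gene and library and, per the file headers, a signal column (mean of normalized counts), a log2 fold change and an unadjusted p-value. Symbols of 25 rows were repaired by gene ID, and positions and lengths came from GENCODE M21 (GRCm38).

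All tested genes were fitted with edgeR 4.0.16 (R 4.3.3): TMM factors, the default filter on low counts, quasi-likelihood test, two-sided, Benjamini-Hochberg over 18444 genes. For values per Omp count, the Omp count replaced the library size and Omp was left out of the test. The fit without KD-2 was added after the values were seen. Exact intervals are Clopper-Pearson at 95% and cover counting error alone. Total counts ran from 15704791 to 17618540 per library. Alternatives used DESeq2 1.42.0 and limma-voom 3.58.1. Scripts were tested on simulated counts. Named genes were all members, list genes with an unadjusted p under 0.05 (or, where none, the 2 with the highest CPM; not all are printed) and the 5 nearest profiles, of which 1 is not reported here.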

Additional observations from a re-analysis of the deposited data

How the results depend on the processing

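Few Taar counts and 149 Omp counts in KD-2 limit the precision. Relative to library size, 81 values of single members over all alternatives kept their direction and did not pass. Nqo1 passed in DESeq2, and Ncam2 (0.17) and Taar6 (1.24) reversed once a mature neuron covariate was added, which also took Acsm4 from -2.72 to -0.64. In the covariate fit Nqo1 stayed at -1.65, Taar2 at -1.91 and Taar4 at -4.19. Summed CPM of the mature neuron list did not overlap between groups (519 to 6230 in KD, 10300 to 16400 in NC), so this fit separates covariate and group poorly. DESeq2 called 347 genes and 1 member, and leaving out KD-2 and NC-1 together gave 3 genes and no member; all other alternatives gave 0, as did each left-out replicate. Deviations from the group mean correlated at 0.32, 0.113 and -0.256 for libraries with the same number, and at -0.379 to 0.373 for different numbers. With 3 libraries in each group these values cannot show or exclude a pairing. In the fit with a replicate block 0 genes and 0 members passed, Acsm4 being at -3.51 and Nqo1 at -2.19.

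Per Omp count over 6 libraries, 23 genes and 0 members passed. The counts were 1215 genes with the mature neuron list as reference, 7 with Gnal, 0 without the filter, 0 with the replicate block, 13484 in DESeq2 (1 member, Nqo1, higher) and 12779 without KD-2 and NC-1 together (3 members). Leaving out single replicates gave 5 to 16464 genes and 0 to 2 members, Taar4 being called higher without KD-1 or KD-3 and lower without KD-2. With the mature neuron list as reference Ncam2 (-0.02), Taar2 (-0.37), Taar4 (-0.31) and Taar6 (-0.04) reversed, as did Taar4 with the block (-0.32). Leaving out KD replicate 2 reversed Nqo1 (-0.75), Taar2 (-1.12) and Taar4 (-2.84), whose highest values over left-out replicates were 4.57, 3.46 and 4.84, leaving out KD-2 and NC-1 together likewise (-0.88, -1.19 and -3.04), and leaving out NC replicate 3 reversed Taar6 (-0.12, highest 0.57).

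Per Omp count without KD-2, 12221 genes (66.3%) passed as higher and 98 (0.531%) as lower. The 2 members that passed, Acsm4 and Taar4, were lower. With Gnal as reference 4 genes were higher and 0 lower, with Ncam2 3 and 0, and no member passed in either. With the mature neuron list 9755 genes were higher and 84 lower, and in DESeq2 12725 and 102. Acsm4, lower, was the only member to pass in each of these. Leaving out single NC replicates gave 0 to 12779 genes, at most 128 of them lower, and 0 to 3 members, all lower. Without KD-1 or KD-3, KD was 1 library. Taar6 reversed without NC replicate 3 (-0.02, highest 0.67). The causes were not tested.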
